A study of Populus deltoides x Populus x canadensis with 6 samples.

Results

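The genes described here are 95 neighbours on chromosome 18 of poplar, read from a table of stem RNA. They were chosen by order: the tested genes of chromosome 18 were sorted by identifier, and genes 541 to 635 of 973 were taken, which is 95 of the 27382 genes tested in the whole table. The limits come from an earlier search of the same fold changes for neighbours that rise together. The differences between genotypes below therefore describe how the stretch was found, and they were not tested as a property of the stretch. Members are numbered here from 1 (Potri.018G088062.v4.1) to 95 (Potri.018G099800.v4.1).

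The samples were basal stems, 2 cm long and stripped of leaves, from plants of the hybrid poplar clone Nanlin 895 (strain name as in the labels) at 45 days. All plants were raised under greenhouse days of 16 h light and 8 h dark. The wild type had 3 libraries, and the line labelled pdbri1-1;2;3;6, mutated in 4 genes of the BRI1 family, had 3 as well. Each library was a pool of 30 plants. The labels give no treatment and do not say how the alleles were made or from how many independent clones the line comes, so a change shared by all mutant plants and caused by something other than these alleles cannot be told apart from an effect of the genotype. The levels of the BRI1 genes were not analysed here, because the table gives identifiers without gene names. For the same reason the stem label was not checked against markers of wood, phloem or leaf, and no member below can be given a name or a role.

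BRI1 is the receptor kinase at the cell surface that binds brassinosteroids, the steroid hormones of plants. With the hormone bound, BRI1 and a co-receptor start a relay that releases transcription factors of the BZR1 and BES1 family from inhibition by the kinase BIN2, and these factors raise some genes and lower others. In stems, brassinosteroids are known to affect the cambium, the dividing layer that makes wood and bark, and the differentiation of xylem. Neighbouring genes in plant genomes are often copies of each other made by tandem duplication, and neighbours can also share chromatin states. Neither was measured here, since no sequence or chromatin data were used.

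Total counts ran from 17752822 to 21096052 per library, and the common biological coefficient of variation was 3.90%. Of all tested genes, 64.1% were called different between genotypes (Benjamini-Hochberg adjusted p under 0.05 over all 27382 genes, quasi-likelihood test of edgeR), so single calls are frequent everywhere. Levels are given either as normalised counts, which are CPM (counts relative to library size) scaled between libraries by TMM factors, or as FPKM, which is per gene length and library total. These are pooled bulk samples, so fewer cells of a type and less RNA per cell cannot be told apart.

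Of the 95 members, 55 were called higher in the mutant, against a background of 33.1% of all tested genes, and 14 were called lower, against 31.0%. The other 26 were not called. At least a 2-fold rise was called for 32 members (33.7% of them, background 13.5%), and at least a 2-fold fall for 2 (background 5.19%). Rises of at least 4-fold were called for 16 members (background 5.85%) and of at least 8-fold for 8 (background 2.99%). All 3 mutant libraries stood above all 3 wild type libraries for 56 members (background 34.5%) and below them for 15 (background 32.6%), and the genotypes overlapped for 24.

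The median log2 fold change of the members was 0.40, with quartiles of -0.08 and 1.49, while the median of all tested genes was 0.01. Within 1.2-fold of the wild type lay 34 of the 95 members (35.8%), against 43.7% of all tested genes. The rest of chromosome 18, 878 tested genes, had a median of 0.00 and quartiles of -0.24 and 0.36, with 31.9% called higher and 13.2% raised at least 2-fold. A different kind of stretch lies on chromosome 8, where 109 tested genes had a median of -1.02 and quartiles of -1.27 and -0.70. The standard deviation of the log2 fold changes was 1.17 over the chromosome 18 members and 0.82 over the chromosome 8 segment. It was 1.16 over all tested genes and 1.07 over the rest of chromosome 18. Both stretches were chosen from these fold changes, and their difference was not tested.

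**Figure D1:**
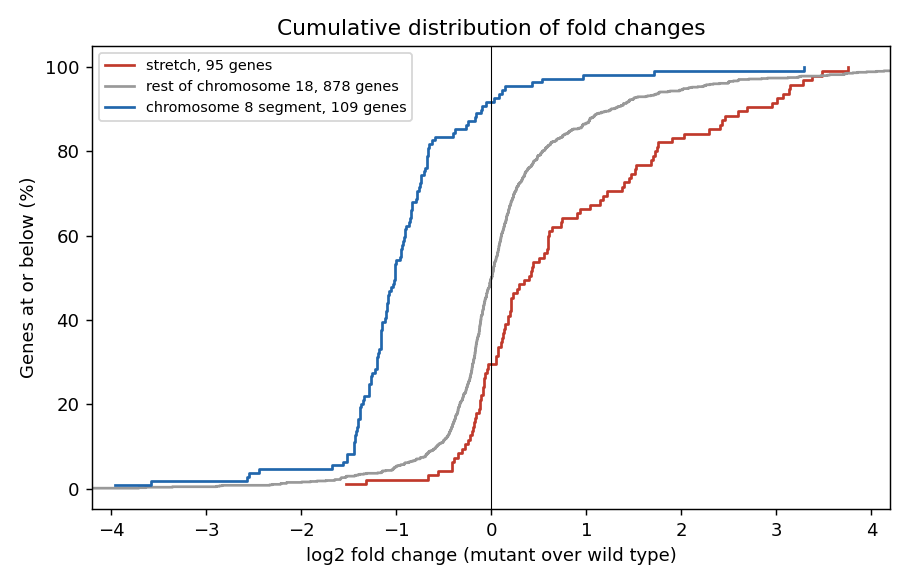
Cumulative share of genes (y axis, percent) at or below each log2 fold change of mutant over wild type (x axis, extremes not shown) for the 95 members, the rest of chromosome 18 and the chromosome 8 segment. The line of the chromosome 18 stretch starts near the rest of its chromosome and bends away to the right, with an upper quartile of 1.49 against 0.36, while the line of the chromosome 8 segment is displaced to the left over nearly its whole height.

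The replicate pools of a genotype were alike in this stretch. The median log2 ratio of the members to the wild type mean, with 0.5 CPM added, was 0.36, 0.40 and 0.37 in mutant libraries 1, 2 and 3, and within 0.00 and 0.01 in the wild type libraries. For the 32 members raised 2-fold it was 1.56, 1.51 and 1.59. For the other 63 it was 0.04, 0.00 and 0.10 in the mutant libraries, a low value that leaving out the raised members favours.

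Along the stretch, 12 of the first 19 members were called at least 2-fold higher, followed by 2, 8, 4 and 6 in the next groups of 19 (background 13.5%). Without the members that passed the filter on low counts through the mutant alone, these were 6 of 13, 2 of 19, 4 of 15, 3 of 17 and 6 of 19, against 9.27% of all genes that reached the filter's minimum in each wild type library. The median log2 fold change of these groups was 1.51, 0.10, 0.73, 0.43 and 0.40 in order. Of the 25 members from 19 to 43, 3 were raised 2-fold, 9 were called higher and 6 lower, where the background was 13.5%, 33.1% and 31.0%, and their median was 0.10. Of the 32 members raised 2-fold, 18 had a neighbouring member that was raised 2-fold as well, and 14 stood alone. Both genes of a neighbouring pair were raised 2-fold in 12 of 94 pairs (12.8%), against 3.04% of 26443 pairs on all chromosomes. The search for joint rises favours such pairs, and so does the larger share of raised members. Whether rises cluster within the stretch beyond that share was not tested. In 0 pairs did both members fall 2-fold.

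**Figure D2:**
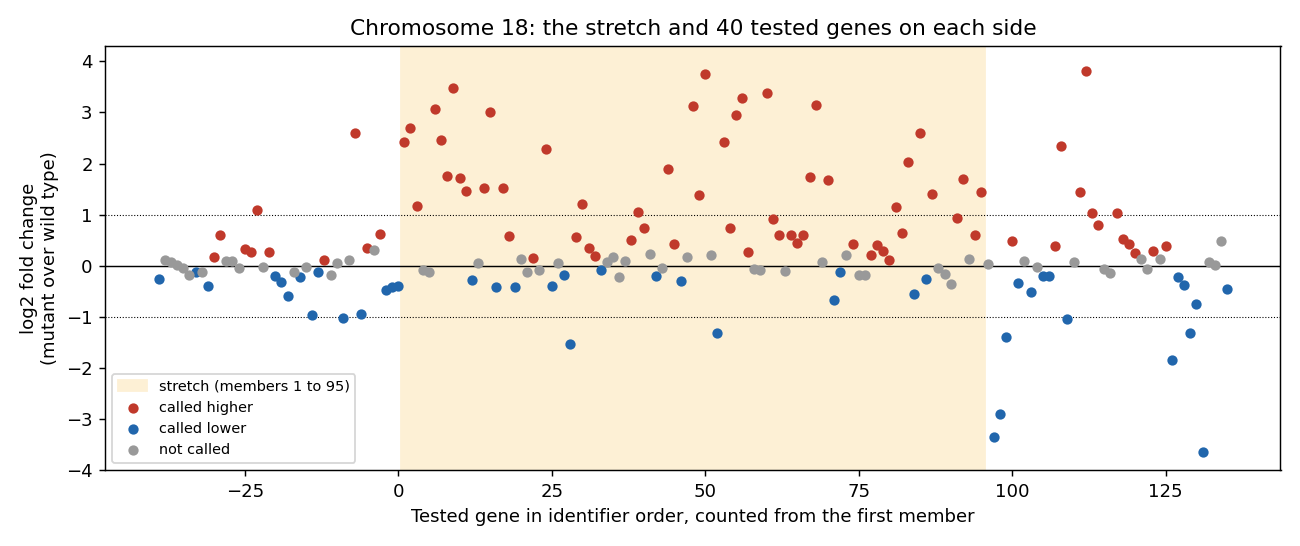
Log2 fold change of mutant over wild type (y axis) for the tested genes of chromosome 18 in identifier order, counted from the first member (x axis), with the stretch shaded and 40 tested genes shown on each side; dotted lines mark 2-fold changes. Points above the upper dotted line crowd the first 19 members, are few between members 19 and 43, and return in small groups to the end of the shaded area.

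The longest run of 2-fold rises was members 6 to 11, 6 genes in a row from Potri.018G088500.v4.1 to Potri.018G089400.v4.1, with log2 fold changes of 1.47 to 3.48. Members 6, 7, 8 and 10 of it passed the filter on low counts only through the mutant libraries, where they were high. All 6 were scarce in the wild type, at 0.234 to 0.764 FPKM, and reached 1.94 to 8.66 FPKM in the mutant. Their lengths in the table fall into a longer group and a shorter group: 1345 to 1403 bp for members 6, 7, 9 and 11, and 908 and 897 bp for members 8 and 10. Copies of each other could share reads; this was not analysed here, and each single value of the run is uncertain to that extent.

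Member 9, Potri.018G089200.v4.1, was the highest of this run. It had 1.46, 0.816 and 0.891 CPM in the wild type libraries and 12.1, 8.99 and 13.7 CPM in the mutant libraries, a log2 fold change of 3.48 ± 0.19 (SE). The lowest mutant library was thus several times above the highest wild type library. Member 6, Potri.018G088500.v4.1, had 6, 10 and 3 counts in wild type stems and 75, 49 and 46 in the mutant. The ratio of its scaled summed counts was 8.60 (95% exact interval 5.34 to 14.6, counting error only). Member 7 of the same run had 7, 6 and 38 counts in the wild type, so 1 wild type library stood well above its replicates, and 115, 87 and 91 counts in the mutant. In member 8 both genotypes spread, with 7, 21 and 14 counts in wild type stems and 68, 22 and 59 in the mutant. Member 11 had 11, 38 and 12 counts in wild type stems, again with 1 library well above the others, and 49, 40 and 86 in the mutant.

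The stretch opened with 3 further rises of long, scarce transcripts. Members 1 to 3 measured 3319 to 3601 bp in the table and stood at 0.0589 to 0.376 FPKM in wild type stems and 0.353 to 1.68 FPKM in the mutant. Member 1, Potri.018G088062.v4.1, had 3, 4 and 5 counts in wild type stems and 22, 15 and 31 in the mutant. Its summed counts differed by a ratio of 5.44 (95% exact interval 2.92 to 11.1, for counting error). Member 2, Potri.018G088100.v4.1, had 1.11, 0.561 and 0.842 CPM in wild type stems and 5.11, 5.63 and 5.34 CPM in the mutant, a log2 fold change of 2.69 ± 0.22 (SE). The genotypes did not overlap in either gene, which the rule for naming member 2 required. Member 1 passed the filter on low counts through the mutant libraries alone, where it was high.

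A little further on, member 15, Potri.018G090000.v4.1, rose from 4.08, 4.08 and 4.26 CPM to 31.9, 32.7 and 35.1 CPM. Its log2 fold change was 3.00 ± 0.09 (SE), with little spread among the pools of either genotype. Member 16, Potri.018G090100.v4.1, stands next to it in the order and moved the other way. It was the most abundant member in the wild type, with 528, 537 and 533 CPM, and had 379, 413 and 408 CPM in the mutant, so that it fell by 0.41 ± 0.03 (SE) on the log2 scale. A steep rise and a modest fall thus stood side by side.

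The middle of the stretch held another triplet and the pair with the highest mutant levels among the 10 largest rises. Members 48 to 50 were near the limit of detection in the wild type, at 0.0820 to 0.280 FPKM, and at 0.805 to 1.32 FPKM in the mutant. Member 50, Potri.018G094100.v4.1, had the largest log2 fold change of the stretch, 3.75 ± 0.56 (SE). It rested on 1, 1 and 2 counts in the wild type against 23, 18 and 20 in the mutant, and its summed counts differed by a ratio of 14.7 (95% exact interval 5.44 to 55.5, for counting error). Member 48, Potri.018G094000.v4.1, had 4, 3 and 1 counts in wild type stems and 28, 20 and 28 in the mutant, with a ratio of 9.13 (95% exact interval 4.40 to 21.9). The size of both rises is therefore loosely fixed. No library of one genotype reached the other, as the rule for naming these members required. Both passed the filter on low counts through the mutant libraries alone, where they were high.

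Members 55 and 56 were better measured. Potri.018G095100.v4.1 (member 55, 1216 bp) had 12.9, 13.8 and 12.1 CPM in wild type stems and 97.8, 94.3 and 107.5 CPM in the mutant, a log2 fold change of 2.95 ± 0.06 (SE). Potri.018G095200.v4.1 (member 56, 1284 bp) had 4.78, 5.71 and 5.20 CPM in wild type stems and 49.0, 51.2 and 52.7 CPM in the mutant, a log2 fold change of 3.28 ± 0.08 (SE). Per length the pair went from 10.2 and 3.90 FPKM to 85.7 and 41.4 FPKM. Whether these neighbours of similar length share reads was not analysed here. Close by, member 60, Potri.018G095900.v4.1, had 2, 1 and 5 counts in wild type stems and 32, 35 and 23 in the mutant, a ratio of 10.8 (95% exact interval 5.26 to 25.8, counting error only). Its log2 fold change of 3.38 became 4.11 without wild type replicate 3, which held most of its wild type counts.

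**Figure D3:**
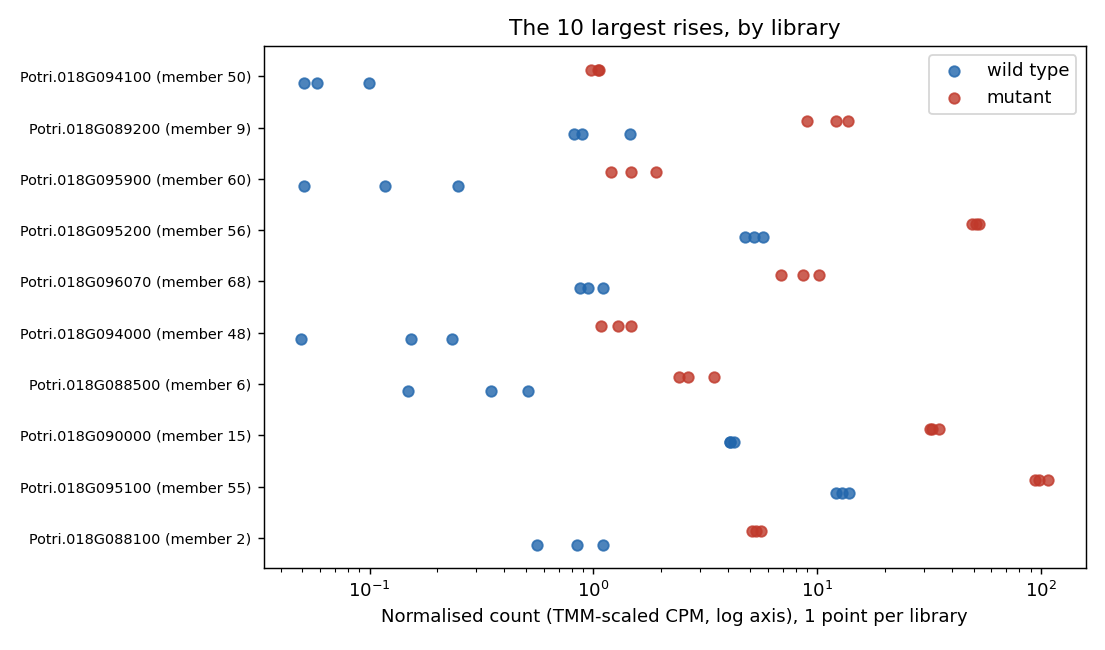
Normalised counts (x axis, TMM-scaled CPM on a log axis) of the 10 members with the largest rises, 1 point per library, with wild type in blue and mutant in red. In each of these genes all 3 mutant points lie to the right of all 3 wild type points, as the rule for choosing them required, and the wild type points of members 50, 60, 48 and 6 are spread widely at under 1 CPM.

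The 10 members from 61 to 70 carry closely spaced identifiers from Potri.018G096007.v4.1 to Potri.018G096084.v4.1, a group noticed after its values were seen. Of these 8 were called higher (background 33.1%) and 0 lower (background 31.0%), with a median log2 fold change of 0.60 and a range from -0.10 to 3.14, and 3 of the rises were at least 2-fold. The steepest was member 68, Potri.018G096070.v4.1, one of 4 members for which the symbol column of the table is empty. It had 1.11, 0.867 and 0.941 CPM in wild type stems and 8.61, 6.88 and 10.2 CPM in the mutant, a log2 fold change of 3.14 ± 0.20 (SE). The next member before it, member 67, had 64, 106 and 109 counts in wild type stems and 278, 282 and 406 in the mutant, with the highest value in mutant library 3 in both genes.

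In the last 25 members 6 rises of at least 2-fold were called (background 13.5%), none of them next to each other. Some were of well expressed genes. The last member, Potri.018G099800.v4.1, had 176.7, 183 and 191 CPM in wild type stems and 497, 490 and 518 CPM in the mutant, a log2 fold change of 1.45 ± 0.03 (SE). At 138 FPKM in wild type stems and 410 FPKM in the mutant, it was the most abundant member called 2-fold higher. Members 83 and 85 rose by log2 fold changes of 2.03 ± 0.09 and 2.60 ± 0.12 (SE), and member 84 between them, Potri.018G098100.v4.1, had 174, 193 and 180 counts in wild type stems and 152, 101 and 135 in the mutant, so that it fell by 0.56 ± 0.12 (SE) on the log2 scale.

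The falls were fewer and mostly small. Of the 14 members called lower, 10 changed by less than 0.5 on the log2 scale. The median wild type level of the 14 was 19.8 FPKM, against 0.743 FPKM for the 32 members raised 2-fold. Sorting genes by direction of change favours such a difference, and genes raised 2-fold elsewhere had a median of 0.879 FPKM. The largest fall was member 28, Potri.018G091401.v4.1, a short gene of 513 bp and one of the 5 most abundant members. It had 88.9, 92.4 and 96.6 CPM in wild type stems and 27.5, 35.3 and 33.7 CPM in the mutant, and fell by 1.53 ± 0.06 (SE) on the log2 scale. Member 52, Potri.018G094300.v4.1, had 5.07, 4.39 and 3.57 CPM in wild type stems and 1.43, 1.52 and 2.25 CPM in the mutant, and fell by 1.32 ± 0.21 (SE), although it stands 2 places after the steepest rise. Member 71, Potri.018G096100.v4.1, had 45, 66 and 73 counts in wild type stems and 34, 47 and 39 in the mutant, and fell by 0.66 ± 0.21 (SE). This last call was lost without mutant replicate 1 and with limma on log2(FPKM + 0.1), where the log2 fold change was -0.49 in both.

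Among the 5 most abundant members by FPKM, members 33 and 72 hardly differed, unlike Potri.018G090100.v4.1, Potri.018G091401.v4.1 and Potri.018G099800.v4.1. Those changed by -0.41, -1.53 and 1.45 on the log2 scale. Member 33, Potri.018G092100.v4.1, had 357, 360 and 362 CPM in wild type stems and 333, 334 and 346 CPM in the mutant, a log2 fold change of -0.09 ± 0.03 (SE) that turned to 0.03 when libraries were scaled by their totals only. Member 72, Potri.018G096200.v4.1, had 72.6, 73.3 and 74.2 CPM in wild type stems and 64.9, 69.6 and 69.0 CPM in the mutant, a log2 fold change of -0.11 ± 0.05 (SE) that turned to 0.01 with library totals. Both were called lower with TMM factors, and no direction can be given for either. Summed over all 95 members, the normalised count was 3320 ± 16 CPM in wild type stems and 4123 ± 51 CPM in the mutant (SD, n = 3 each). The 32 members raised 2-fold accounted for 325 ± 6.4 CPM of this in wild type stems and 1038 ± 32 CPM in the mutant, and the other 63 for 2995 ± 13 and 3085 ± 45 CPM.

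**Figure D4:**
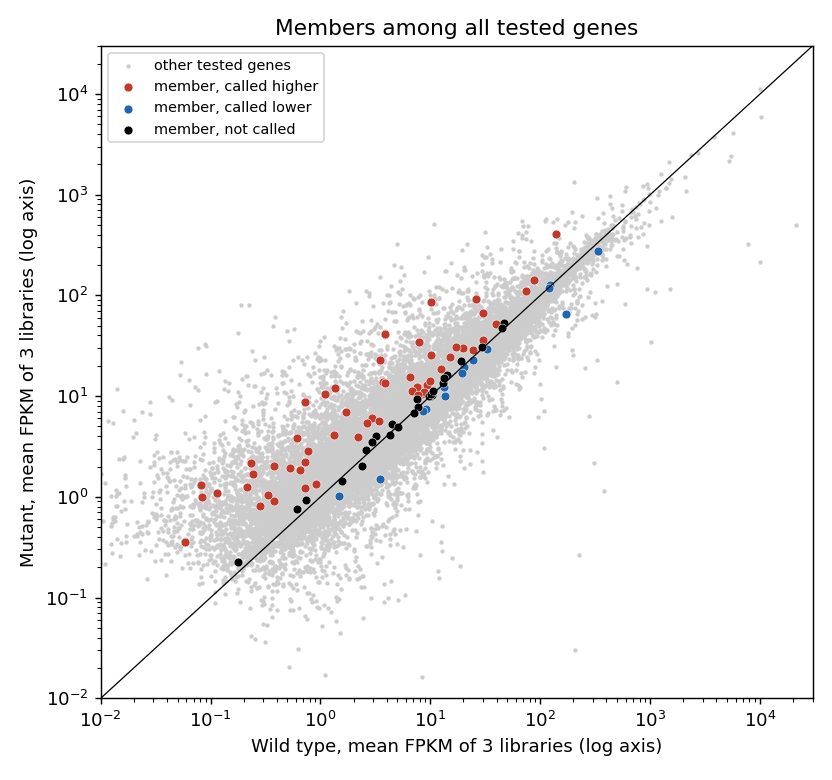
Mean FPKM of the 3 mutant libraries (y axis, log) against that of the 3 wild type libraries (x axis, log) for each member and, in grey, for the other tested genes above 0 in both genotypes; the diagonal marks equal FPKM. Members called higher lie above the diagonal over a wide range of levels, and 17 of these 55 are under 1 FPKM in the wild type. The 32 members raised 2-fold have a median of 0.743 FPKM in the wild type, and genes raised 2-fold elsewhere 0.879 FPKM. The members called lower, in blue, sit closer to the diagonal and mostly at higher levels.

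Many of the rises were of scarce transcripts, and rises were more frequent among scarce transcripts in the whole table too. Among the scarcest class of tested genes, with a mean of up to 2.82 FPKM, 17 of 27 members (63.0%) were raised at least 2-fold, against 28.3% of the 6819 other genes of that class. Of these 17, 11 passed the filter on low counts through the mutant libraries alone, where they were high. Among the 15 members of the class that reached the filter's minimum in each wild type library, 6 were raised 2-fold, against 14.7% of 5010 such genes elsewhere. In the other classes, each a quartile of tested genes, from lower to higher levels, the members raised 2-fold were 4 of 18 (22.2%), 5 of 25 and 6 of 25 (24.0%), against 11.8%, 6.42% and 7.26% of the other genes. The members' share was above that of the other genes in each class, which the choice of the stretch favours.

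**Figure D5:**
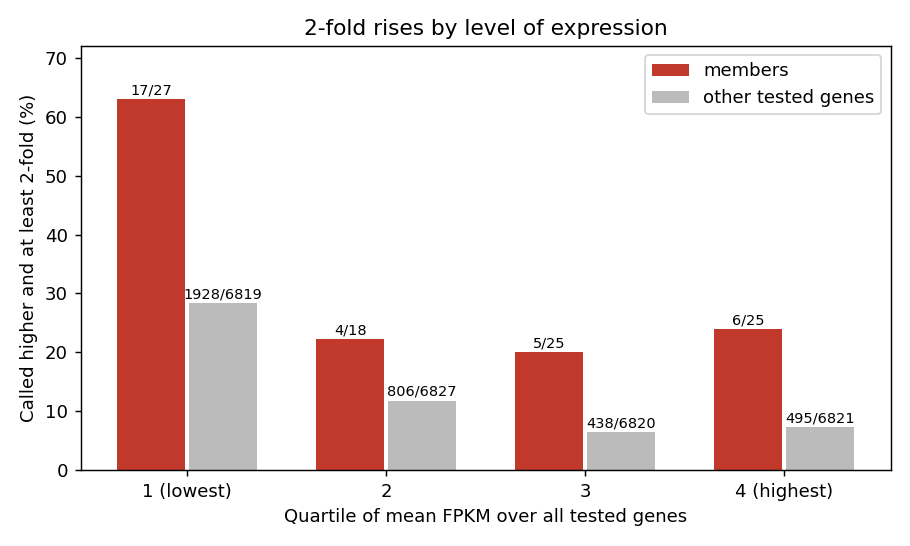
Share of genes called at least 2-fold higher in the mutant (y axis, percent) in each quartile of mean FPKM over all tested genes (x axis), for the members in red and the other tested genes in grey, with counts over the bars. The red bar is tallest in the lowest quartile, at 63.0%, where 11 of the 17 rises are of members that passed the filter through the mutant alone, and is at most 24.0% in the other quartiles.

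The filter on low counts let in some members through the mutant alone. All 95 members reached the minimum of the filter (0.516 CPM before scaling) in each mutant library, and 83 reached it in each wild type library. Of the 12 others, 11 were called at least 2-fold higher, as the way they passed favours. Among the 83, 44 were called higher (53.0%) and 14 lower (16.9%), 21 (25.3%) were raised at least 2-fold and the median log2 fold change was 0.21. Of the 25403 genes of the whole table that reached the minimum in each wild type library, 30.1% were called higher, 33.4% lower and 9.27% raised at least 2-fold, with a median of -0.02.

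Between the first and the last member the table lists 124 rows, so 29 rows were not tested. No count was found for 12 of them. The 29 rows together held 79 counts in wild type stems and 201 in the mutant, with more counts in the mutant for 14 rows, more in the wild type for 1 and equal sums above 0 for 2. This is 2.54-fold more in the mutant, where all 8410 untested rows of the table held 1.46-fold more. The member with the fewest counts that passed had 45 over all libraries, and the untested row with the most had 60, with 1 wild type library at 18 and the others at 13 or fewer.

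The tested genes immediately outside the stretch did not share the rise, which the way its limits were found favours. The tested genes just before it, at positions 538 to 540, had log2 fold changes of -0.48, -0.41 and -0.39 and were called lower, and member 1 stood at 2.41. Just after it, position 636 was not called at 0.03, and the next genes, positions 637 and 638, fell by 3.36 ± 0.11 and 2.89 ± 0.22 (SE) on the log2 scale. Position 637, Potri.018G100166.v4.1, had 555, 579 and 568 counts in wild type stems and 55, 60 and 58 in the mutant. Of the 20 tested genes before the stretch, 4 were called higher and 10 lower, with 1 raised and 1 lowered at least 2-fold. Of the 20 after it 7 were called higher and 8 lower, with 4 raised and 4 lowered at least 2-fold. The background was 33.1% higher and 31.0% lower, with 13.5% raised and 5.19% lowered at least 2-fold. Among these outer genes, position 533 rose by a log2 fold change of 2.60 and position 652 by 3.80. Near the 2-fold limit within the stretch, member 39 was counted as raised 2-fold with a log2 fold change of 1.04, and member 91 was not with 0.94.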

How the data were processed

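RNA of 6 pooled stem libraries was given in 1 table. The deposited counts are whole numbers, labelled as counts in the file headers, and were taken as raw. The deposited FPKM values carry that name in the file headers and were used as given. Gene lengths were recovered as counts divided by FPKM and library total, and came out whole (tolerance 0.01 bp) in 100% of 185484 values above 0. The sources used here name no aligner, counting tool, genome build or strand setting. The table gives 0 symbols other than identifiers, so lists by gene name or family were not run. The identifier order was taken as the gene order, and no coordinates were used.

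The test was run in edgeR 4.0.16 (R 4.3.3) on all genes passing filterByExpr (minimum count 10, minimum total 15), with TMM factors, glmQLFit (robust=TRUE) and glmQLFTest on genotype alone. A called gene has a Benjamini-Hochberg adjusted p under 0.05. Standard errors are the log2 fold change divided by the square root of F. P-values set the difference between genotypes against the spread between pools. The procedure was tested on simulated data. Intervals of count ratios are exact binomial (95%), scaled by effective library sizes, and cover counting error only.

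The members and lists were chosen with earlier results of these data known. Members named are the first and last, up to 10 largest rises and 5 largest falls that were called without overlap between genotypes, and the 5 most abundant by FPKM; 0 members had no count in a whole genotype. Other members mentioned were chosen after their values were seen. Alternatives were other scalings (DESeq2 1.42.0 size factors, upper quartile, library totals), other filters, DESeq2, limma 3.58.1, a replicate block and leaving out each library.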

Additional observations from a re-analysis of the deposited data

How the results depend on the processing

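Scaling by library totals alone moved the median over all tested genes (log2) from 0.01 to 0.13 and that of the members from 0.40 to 0.52, with the same distance of 0.39 between them. The members' median was 0.37 with limma on log2(FPKM + 1) and 0.50 with 0.1 added, where that of all tested genes was 0.10 and 0.13. The distance between them was 0.27 and 0.37 in these settings. The members' median was 0.26 with at least 50 counts in 3 libraries (76 members left) and 0.27 without the outermost 10 members at each end. It was 0.21 for the members over the filter in all wild type libraries, an alternative chosen after seeing the data. The count raised at least 2-fold fell to 20 with the 50-count filter and to 21 with the wild type filter, both of which leave out scarce members by construction, and to 22 with limma on log2(FPKM + 1), which keeps all 95. Members called lower numbered 8 and 7 with limma on log2(FPKM + 1) and log2(FPKM + 0.1), and those at least 2-fold lower 1 with the former; the cause was not tested. Summed levels were 3179 CPM in the wild type and 4299 CPM in the mutant with library totals, and 2788 and 3723 CPM without the most abundant member, the latter chosen after seeing the data. Leaving out each library gave 50 to 53 members higher, 11 to 16 lower, 30 to 33 at least 2-fold higher, 2 at least 2-fold lower, and medians of 0.38 to 0.42.

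Samples share only a replicate number across genotypes: same-numbered deviations correlated at -0.01, -0.02 and 0.00. With the replicate block 55 members were called higher, 14 lower, 32 at least 2-fold higher and 2 at least 2-fold lower, with a median of 0.40. Of 298 combinations of 19 named members and alternatives, 285 kept direction and side of the threshold, 7 lost the call and 6 changed direction. The lost calls and changed directions concerned Potri.018G092100.v4.1, Potri.018G096100.v4.1 and Potri.018G096200.v4.1 alone. Of these, Potri.018G096100.v4.1 did not change direction, with log2 fold changes from -0.85 to -0.29. Named rises of scarce members shrank by over 1.5-fold for 8 members with limma on log2(FPKM + 1) and for 4 with 0.1 added, which understate changes of low values: with the former Potri.018G094100.v4.1 went from 3.75 to 1.10, Potri.018G088062.v4.1 from 2.41 to 0.35 and Potri.018G095900.v4.1 from 3.38 to 0.88. Potri.018G092100.v4.1 stood at 0.0327 with library totals and at 0.0319 and 0.0321 with limma on log2(FPKM + 1) and log2(FPKM + 0.1), and Potri.018G096200.v4.1 at 0.0086, 0.0089 and 0.0089 with the same settings. With 17752822 to 21096052 counts per library, members that were not called may still differ.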

Other observations

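Replicate differences within a genotype do not enter the choice of the stretch. Mutant library 2 was the lowest of the mutant libraries for 15 of the 32 members raised 2-fold (46.9%), and for 42.8% of the 3667 genes raised 2-fold elsewhere, against 33.0% of all tested genes. The median biological coefficient of variation was 9.90% for the members raised 2-fold and 4.41% for the other members, and 9.10% for the genes raised 2-fold elsewhere.

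The members were shorter than the rest of their chromosome in the table, with a median length of 1518 bp against 2022.5 bp for the other 878 tested genes. The members raised 2-fold had a median of 1360.5 bp and the other members 1907 bp. Genes raised 2-fold elsewhere had a median of 1665 bp, and all tested genes 1832 bp. None of these differences was tested.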
